A study of Elaeis guineensis with 9 samples.

Results

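In leaves of oil palm, 18 predicted mRNAs set the Deli x SP540 population apart from Deli x LaMe and Deli x Yangambi, 14 of them by a higher level and 4 by a lower one. They were chosen by their own levels among 43344 predicted mRNA rows with a mean under 1000 TPM, out of 51490 transcript rows in all. TPM gives the share of each transcript in a library after correction for its length, scaled so that a library sums to 1000000. A row was taken when its 3 SP540 libraries and the 6 other libraries did not overlap, when the lowest value of the higher set was at least 5 TPM, and when that value was at least 2 times the highest value of the lower set. The higher level in SP540 therefore belongs to the choice and was not tested, and only differences between LaMe and Yangambi and between yield classes were.

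The 9 libraries came from leaf tissue of frond 17 of Tenera palms, all 7 years old, grown in 1 field in Indonesia and with 4 years of yield records. Each population held 1 low-yield, 1 medium-yield and 1 high-yield library, so that a population had 3 libraries and a yield class had 3. Whether a library stands for 1 palm or for pooled palms is not stated, and the p-values below reflect only how much these libraries vary, which may be technical. No batch is named in the labels, and a batch difference between populations cannot be told apart from the populations. SP540, LaMe and Yangambi stand below for the crosses of Deli with each.

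Tenera palms are hybrids of thick-shelled dura mothers, for which Deli is the classic breeding source, with shell-less pisifera fathers, so that crosses with a shared Deli side can differ in what the father brings. A gene can give several mRNAs that differ in their start, their splicing or their end, and a table of transcripts then holds a row for each. Crosses can differ in how much a gene is transcribed or in which of its mRNAs prevails, and a row-by-row table shows both kinds of difference. In bulk leaf tissue, a lower level can come from fewer cells of a type or from less RNA per cell, which cannot be told apart.

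The rule took 0.0323% of the rows as higher in SP540 and 0.00923% as lower. Applied in the same way to the other populations, it took 32 rows (0.0738%) as higher and 34 (0.0784%) as lower in LaMe, and 14 (0.0323%) as higher and 14 (0.0323%) as lower in Yangambi. Just inside the limit for higher rows stood XM_010912036.1, with a ratio of 2.13 between the lowest SP540 value and the highest other value, and XM_010939763.3 with 2.15. Just outside it were XM_010926076.3 with 1.97 and XM_029267827.1 with 1.95. For lower rows, XM_010940946.3 with 2.34 and XM_010909751.2 with 2.43 were just inside, and XM_010944173.3 with 1.93 and XM_010920931.3 with 1.75 just outside.

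Of the 18 mRNAs, 7 could be paired with a gene of the RefSeq gene table of assembly EG11, and 11 (61.1%) could not. Among all predicted mRNA rows with at least 5 TPM throughout the SP540 libraries or throughout the other libraries, 21.6% were unpaired. None of the 7 genes carries a name or synonym in that table beyond its LOC number, so no function is given for them here. The tissue check rests on named genes. The catalase gene CAT2 lay between 3458 and 7189 TPM, the flower MADS-box genes AG2, AGL2-2, AGL2-3 and GLO2 reached at most 0.735 TPM in any library, AGL2-5 and GLO1 were listed at 0 in all 9, and DEF1 lay between 1.08 and 6.23 TPM. Rows above 0 numbered 33581 to 37060 per library, with the most in the medium-yield SP540 library.

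A first group of higher mRNAs was close to silent outside SP540. XM_029263709.1, the mRNA of LOC114913993, was at 12.8, 11.2 and 7.57 TPM in the SP540 libraries of low, medium and high yield, the order kept below for every population. Elsewhere it was at 0.121 TPM in the high-yield LaMe library and listed at 0 in the other 5. The gene next to it in EG11, the long non-coding RNA gene LOC105042327, had the same outline: 5.89, 5.45 and 3.36 TPM in SP540 and listed at 0 in all 6 other libraries. Both genes thus had signal in the 3 SP540 libraries and next to none in the rest. XM_010906494.2 was at 8.52, 7.86 and 8.34 TPM in SP540 and at no more than 0.0139 TPM in any other library. These 3 SP540 values were the most even of all higher mRNAs, with a coefficient of variation of 4.12%. XM_029263709.1 and XM_010906494.2 were the 2 of 14 that stayed under 1 TPM in all 6 other libraries.

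In 2 further mRNAs, 1 library outside SP540 had a low signal and the other 5 had next to none. XM_010920932.3 was at 39.1, 45.2 and 26.2 TPM in SP540, at 1.75 TPM in the low-yield LaMe library and at no more than 0.000273 TPM in the other 5. XM_010912036.1 was at 33.0, 31.6 and 6.28 TPM in SP540, at 2.94 TPM in the low-yield Yangambi library and listed at 0 in the other 5. The high-yield SP540 library stood well below the other SP540 libraries for XM_010912036.1, and this single value places it next to the limit of the rule. Its coefficient of variation in SP540, 63.6%, was the highest among the 14. The row XM_029262386.1 of LOC105034541 was low but not silent outside SP540: it was at 16.1, 18.1 and 26.1 TPM in SP540, and at 3.34, 2.07 and 0 TPM in LaMe and 4.39, 0 and 1.51 TPM in Yangambi. LaMe and Yangambi overlapped for all 3 of these mRNAs.

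In LOC105055213 the populations differed in the shares of its transcripts, while the summed level of the gene overlapped. The member row, XM_019854211.2, had the widest gap of all on the log2(TPM + 1) scale: 52.8, 45.9 and 55.1 TPM in SP540, against 0, 0 and 0.920 TPM in LaMe and 1.06, 0 and 1.49 TPM in Yangambi. Another row of the gene, XM_010936971.3, ran the opposite way. It was at 29.0, 40.6 and 33.4 TPM in SP540, and at 80.0, 83.9 and 88.4 TPM in LaMe and 79.1, 64.1 and 79.4 TPM in Yangambi. Together with the 5 further rows of the gene, the total was 109 ± 1.91 TPM (SD, n = 3) in SP540 and 104 ± 8.34 TPM (SD, n = 6) in the other libraries. The totals overlapped, and XM_019854211.2 made up 42.8 to 51.0% of the gene in SP540 and at most 1.49% elsewhere.

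**Figure D1:**
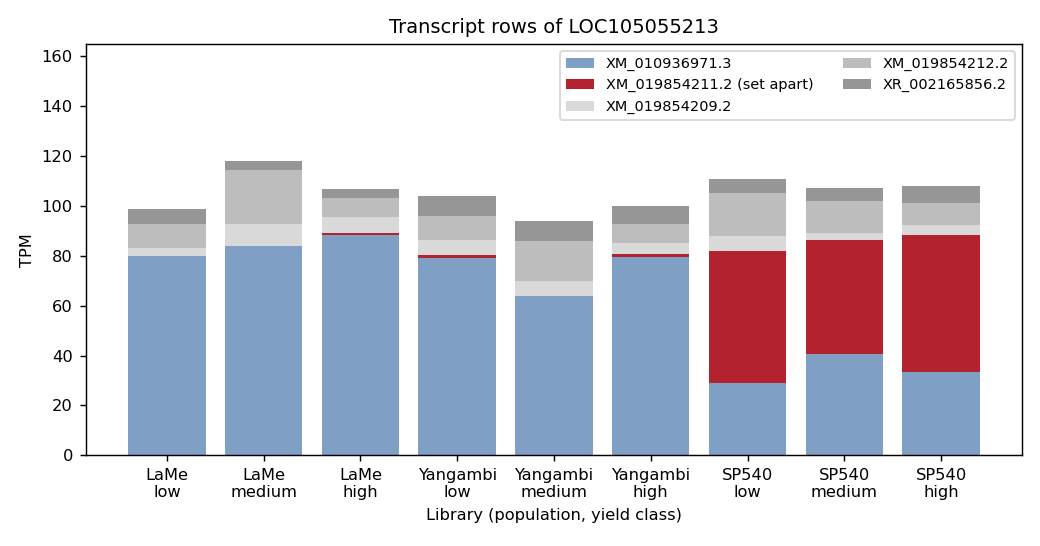
TPM of the transcript rows of LOC105055213, stacked per library, so that the full height of a bar is the summed level of the gene. Rows listed at 0 in all libraries are left out. Bar heights lie between 93.8 and 118 TPM, while the red part, XM_019854211.2, is large only in the 3 SP540 libraries, where the blue part, XM_010936971.3, is smaller.

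LOC105052379 showed a similar arrangement at a lower level. XM_029266819.1 was at 9.20, 12.3 and 10.4 TPM in SP540, at 3.08 and 2.18 TPM in the low-yield and medium-yield Yangambi libraries, and at 0 or at a trace in the remaining 4. It held 45.0 to 50.6% of the gene in SP540, 17.5 and 11.9% in those Yangambi libraries and next to nothing elsewhere. The summed level of the 4 rows of the gene was 22.6 ± 3.61 TPM (SD, n = 3) in SP540 and 19.5 ± 2.29 TPM (SD, n = 6) in the others, with overlap. No other row of this gene separated SP540 from the rest. XM_029266817.1, its main row in LaMe at 13.9, 10.5 and 13.1 TPM, was at 5.56, 3.32 and 7.34 TPM in SP540 and between 3.46 and 16.3 TPM in Yangambi, and these ranges overlapped.

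For all 18 mRNAs, with or without a gene in EG11, the rows with the accession numbers directly above and below were examined, a step chosen after the values were seen. RefSeq numbers rows of a gene in series, but not reliably: where both of 2 consecutive rows were paired with a gene, it was the same gene in 24.6% of 16873 cases, so that a shared gene is not implied. Of 20 such neighbouring rows that were not among the 18 and reached 1 TPM in 3 or more libraries, 6 were lower in SP540 than in all other libraries, where the share over all predicted mRNA rows was 1.05%, and 2 were higher, where it was 2.87%. The 6 include XM_010945241.3 and XM_010945243.3, which have the same values and amount to a single measurement. This is the same contrast that chose the mRNAs, and reads that match several rows are divided among them, so the neighbouring rows are no independent measurement. Of the 14 higher mRNAs, 6 had a row lower in SP540 that reached 5 TPM, of the same gene or an adjacent number. In all 6 the sums overlapped between SP540 and the others. Such a count was not made over all rows, and by the shares above most single rows overlap in any case.

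XM_010920932.3 and XM_010920931.3 ran opposite to each other in this way. XM_010920931.3, itself just outside the rule for lower rows, was at 14.9, 5.17 and 20.9 TPM in SP540, at 36.6, 44.6 and 39.9 TPM in LaMe and at 58.7, 39.7 and 46.9 TPM in Yangambi. Within SP540, the library with the most of XM_010920932.3, the medium-yield one, had the least of XM_010920931.3, and the high-yield one had the least of the first and the most of the second. The sum was 50.5 ± 3.45 TPM (SD, n = 3) in SP540 and 44.7 ± 7.60 TPM (SD, n = 6) in the others. XM_010920932.3 held 55.6 to 89.7% of it in SP540 and at most 4.56% elsewhere.

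XM_010906494.2 and XM_010906495.1 are both among the 18, on opposite sides. XM_010906495.1 was at 0.899, 2.73 and 1.8e-09 TPM in SP540, against 8.47, 8.22 and 7.86 TPM in LaMe and 6.67, 11.02 and 8.21 TPM in Yangambi. The sum of both rows was 9.45 ± 1.13 TPM (SD, n = 3) in SP540 and 8.41 ± 1.43 TPM (SD, n = 6) in the other libraries. XM_010906494.2 made up 74.2 to 100% of this sum in SP540 and at most 0.129% elsewhere, the widest separation of shares among these pairs.

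XM_010945242.3 lies between XM_010945241.3 and XM_010945243.3, the rows with identical values in all 9 libraries. XM_010945242.3 was at 30.4, 39.3 and 45.7 TPM in SP540, at 1.63, 8.45 and 2.50 TPM in LaMe and at 2.36, 2.82 and 7.57 TPM in Yangambi. Its neighbours were each at no more than 0.0376 TPM in SP540, at 12.5, 3.97 and 15.3 TPM in LaMe and at 14.8, 16.0 and 36.9 TPM in Yangambi. The sum of the 3 rows varied widely and overlapped between SP540, at 38.5 ± 7.68 TPM (SD, n = 3), and the rest, at 37.4 ± 22.6 TPM (SD, n = 6).

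XM_029267555.1 was at 60.1, 27.3 and 79.1 TPM in SP540, at 1.02, 0 and 7.58 TPM in LaMe and at 0, 1.84 and 10.6 TPM in Yangambi. The neighbouring XM_029267554.1 was at 9.48, 14.9 and 18.1 TPM in SP540 and between 20.0 and 46.7 TPM in the other libraries. Here the sums were less alike, at 69.7 ± 27.5 TPM (SD, n = 3) in SP540 and 37.6 ± 11.2 TPM (SD, n = 6) elsewhere, with overlap through the medium-yield SP540 library.

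**Figure D2:**
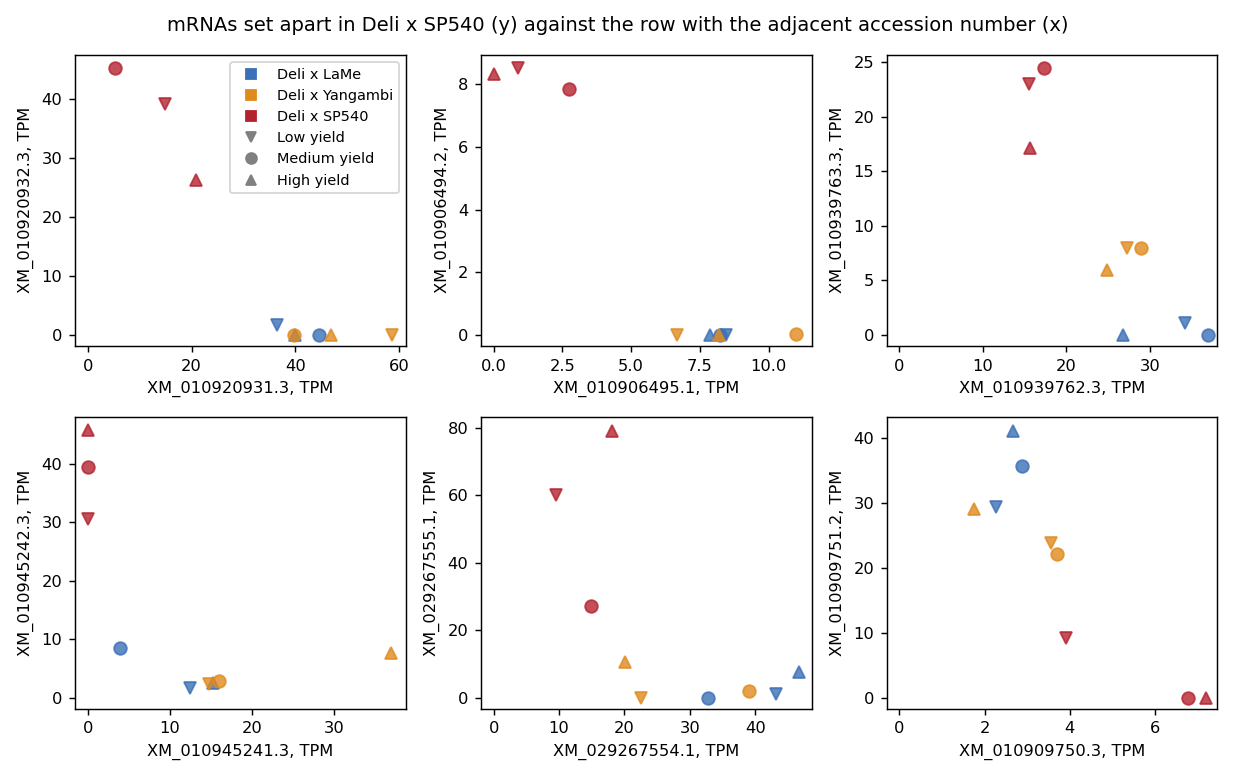
Level in TPM of 6 of the mRNAs (vertical axes) against the row with the adjacent accession number (horizontal axes), 1 point per library, with colour for the population and shape for the yield class. In the first 5 panels the SP540 points lie at the upper left and the others lower right, and in the last panel, XM_010909751.2, they lie at the lower right. In the panel of XM_010939763.3 the Yangambi points lie between those of LaMe and SP540.

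XM_010939763.3 stepped from LaMe through Yangambi to SP540. It was at 1.11, 0 and 0 TPM in LaMe, at 7.97, 7.93 and 5.92 TPM in Yangambi and at 23.0, 24.5 and 17.1 TPM in SP540. The row with the preceding number, XM_010939762.3 of LOC105057234, was lower in SP540, at 15.6, 17.3 and 15.6 TPM, than in Yangambi, at 27.2, 28.9 and 24.9 TPM, and in LaMe, at 34.3, 37.0 and 26.7 TPM. The 3 populations did not overlap in the share of XM_010939763.3 in the sum of both rows, which was 0 to 3.13% in LaMe, 19.2 to 22.6% in Yangambi and 52.3 to 59.7% in SP540. The sum itself overlapped, at 37.7 ± 4.58 TPM (SD, n = 3) in SP540 and 33.7 ± 4.07 TPM (SD, n = 6) in the others.

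LOC105036773 was graded too, at a higher level. Its row XM_010912508.2 was at 13.04, 12.4 and 17.9 TPM in LaMe, at 36.7, 35.0 and 36.9 TPM in Yangambi and at 119, 85.7 and 92.3 TPM in SP540. Within a population the values stayed close, while the population means were 14.5 ± 2.99, 36.2 ± 1.04 and 99.0 ± 17.7 TPM (SD, n = 3 each). XM_010920359.3 had a smaller step between the lower groups, with 1.67, 3.52 and 6.20 TPM in LaMe, 7.82, 8.47 and 6.73 TPM in Yangambi and 26.2, 20.9 and 25.1 TPM in SP540.

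The difference between Yangambi and LaMe was tested with limma on log2(TPM + 1). The test covered the 30576 transcript rows that reached 1 TPM in 3 or more libraries. The rule did not use this difference itself, but it bounded the single LaMe and Yangambi values against those of SP540. Some of the 18 reached 1 TPM in 3 libraries only through SP540: XM_019854211.2, XM_010920932.3, XM_010906494.2, XM_029263709.1, XM_029266819.1 and XM_010912036.1. XM_029263709.1 and XM_010906494.2 stayed under 1 TPM in every LaMe and Yangambi library and could hardly be called. The 18 are therefore not a like set beside all rows. With an adjusted p under 0.05 as the threshold, 2 of the 18 mRNAs were called, both higher in Yangambi. Of all rows tested, 0.383% were called. XM_010939763.3 differed by 2.68 on the log2(TPM + 1) scale (SE 0.298, adjusted p = 0.0250 by limma) and XM_010912508.2 by 1.28 (SE 0.170, adjusted p = 0.0412). Both were higher in Yangambi in 3 of 3 yield classes. The calls depended on the settings: with a pseudocount of 0.1 (adjusted p = 0.0819 and 0.0548) or no filter (0.0558 and 0.0949) neither was called. When single libraries were left out, XM_010939763.3 was called only without the low-yield LaMe library (adjusted p = 0.0433) and XM_010912508.2 in no case, with adjusted p up to 0.128 and 0.179.

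Among the others, XM_029266819.1 (log2 difference 1.23, SE 0.493) and XM_010920359.3 (0.97, SE 0.337) had the next smallest p-values but were not called, with limma adjusted p of 0.336 and 0.283. In all, Yangambi lay above LaMe without overlap in 5 of the 14 higher mRNAs and LaMe above Yangambi in 0. In XM_010906494.2 all 6 of these values were traces, and in XM_029266819.1 those of LaMe and 1 of Yangambi were traces or 0. Over the 13565 predicted mRNA rows with at least 5 TPM in each SP540 library, Yangambi was above in 13.9% and LaMe above in 11%. Of the 4 lower mRNAs, XM_010909751.2 had LaMe above Yangambi without overlap. The median absolute log2 difference between Yangambi and LaMe was 0.321 over the 18 and 0.308 over all rows tested. Some of the 18, XM_029266819.1 among them, passed the filter only through SP540. The medians therefore do not compare like sets and were not tested.

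**Figure D3:**
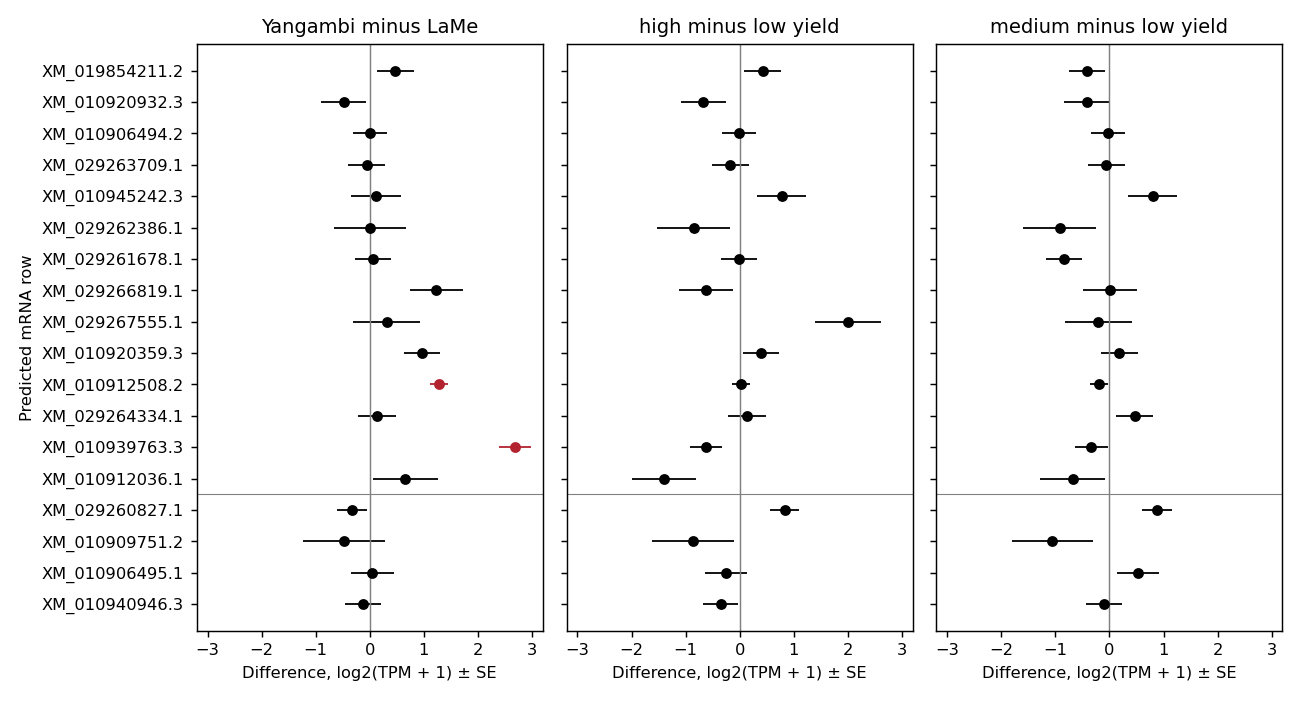
Differences fitted by limma for the 18 mRNAs, in log2(TPM + 1) with bars of 1 SE, between Yangambi and LaMe, between high and low yield and between medium and low yield. Red points passed an adjusted p of 0.05 and black points did not. The red points are XM_010912508.2 and XM_010939763.3 in the left panel, and none is red in the yield panels.

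LOC105036773 and LOC105034610 are the only 2 of the 7 paired genes on the same chromosome of EG11, with 28 annotated genes between them. LOC105034610, row XM_029261678.1, was at 107, 48.0 and 89.4 TPM in SP540, against 8.26, 10.02 and 12.5 TPM in LaMe and 17.3, 4.85 and 13.5 TPM in Yangambi. The medium-yield SP540 library was the lowest of the 3. The row with the next number, XM_029261679.1, which is not paired with a gene, followed it: 153, 24.7 and 106 TPM in SP540, 5.96, 9.54 and 16.2 TPM in LaMe and 26.3, 2.39 and 33.3 TPM in Yangambi. Its medium-yield SP540 value lay inside the Yangambi range, so that this row was not among the 18. The row before it, XM_029261677.1, ran the other way at a low level, with 0.967, 0.808 and 1.09 TPM in SP540 and 1.14 to 3.51 TPM elsewhere.

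Along the EG11 order, from 12 genes before LOC105034610 to 12 genes after LOC105036773, 16 genes reached 1 TPM in 3 or more libraries. Summed over their rows, 6 of them were higher in SP540 than in all other libraries, the 2 chosen genes included, and 1 was lower. Over all 15299 genes summed in this way, 3.58% were higher and 1.23% lower without overlap. This is the contrast that chose the 2 genes, and no test was made of it. The gene after LOC105036773, LOC105036243, was at 176, 80.2 and 133 TPM in SP540, at 65.8, 66.4 and 62.7 TPM in Yangambi and at 1.90, 2.09 and 3.76 TPM in LaMe. It missed the rule because its lowest SP540 value was less than 2 times the Yangambi values, and it repeated the order LaMe, Yangambi, SP540 of its neighbour. LOC105037115, before LOC105034610, was at 43.0, 53.2 and 35.8 TPM in SP540 and between 9.501 and 24.2 TPM elsewhere. LOC105034598 and LOC105042885 were the other 2 higher genes, with SP540 means of 11.9 ± 3.14 and 15.7 ± 3.25 TPM against 5.18 ± 1.96 and 7.25 ± 2.63 TPM in the other libraries (SD, n = 3 and n = 6).

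Between LOC105034610 and LOC105036773, 4 genes were measured, and in 3 of them the low-yield and high-yield SP540 libraries stood far below all 7 others. LOC105037878 was at 0.849, 10.1 and 0.602 TPM in SP540 and between 12.04 and 29.0 TPM elsewhere, which makes it the lower gene counted above. LOC105036264 was at 0.937, 15.8 and 0.695 TPM in SP540 and between 11.5 and 26.7 TPM elsewhere. LOC105036265 was at 14.6, 50.2 and 7.64 TPM in SP540 and between 36.0 and 76.0 TPM elsewhere. The low-yield and high-yield SP540 libraries thus went together here, and the medium-yield library lay closer to LaMe and Yangambi, as it did in LOC105034610 and LOC105036243. This did not hold along the whole stretch. In the fourth gene between, LOC105037868, SP540 was at 4.06, 34.5 and 3.38 TPM and the others between 1.81 and 20.0 TPM, so that the medium-yield library was the highest of all 9. In LOC105037115, too, the medium-yield SP540 library was the farthest above the others. These genes were singled out after their values were seen. Which assembly the table was made from is not known, and the neighbourhood holds only as far as the EG11 gene order does.

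**Figure D4:**
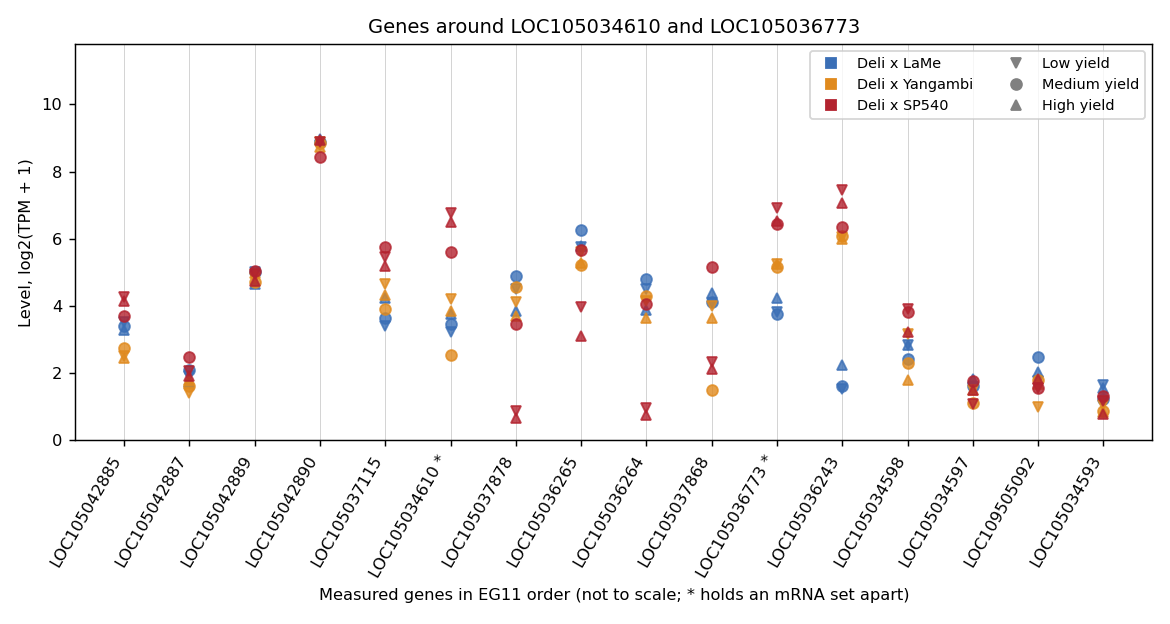
Level of the 16 measured genes from before LOC105034610 to after LOC105036773, in log2(TPM + 1), in EG11 gene order and not to scale, 1 point per library with colour for the population and shape for the yield class. The SP540 points are the highest in both starred genes and in LOC105036243, LOC105037115, LOC105034598 and LOC105042885. In LOC105037878, LOC105036265 and LOC105036264 the low-yield and high-yield SP540 points lie below all others.

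Within 5 places on each side of all 7 paired genes, the stretch just described included, 30 genes were measured. Of these, 5 were higher and 2 lower in SP540 without overlap, beside 3.58% and 1.23% over all summed genes. Measured here means at least 1 TPM in 3 or more libraries, which LOC105042327 reached only through SP540. The contrast is the one that chose the paired genes, and no test was made of it. Of the higher ones, LOC105042327, LOC105037115, LOC105036243 and LOC105034598 are given above, and LOC105052376 near LOC105052379 had means of 6.53 TPM in SP540 and 3.85 TPM elsewhere. The 2 lower ones, LOC105058131 and LOC105058133, stand 4 and 2 places before LOC105058135, whose own row is among the lower mRNAs. Their means were 17.8 and 58.7 TPM in SP540 against 26.3 and 80.0 TPM in the other libraries.

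The last higher mRNA, XM_029264334.1, was at 17.4, 41.4 and 17.3 TPM in SP540, at 4.62, 6.14 and 4.39 TPM in LaMe and at 5.13, 4.47 and 7.48 TPM in Yangambi. The 2 rows with the preceding numbers were higher in SP540 as well. XM_029264333.1 was at 41.4, 73.4 and 34.6 TPM there and between 6.28 and 33.7 TPM elsewhere, and XM_029264332.1, a row of LOC105044264, was at 25.9, 22.3 and 19.7 TPM and between 3.0 and 13.2 TPM elsewhere. These 3 consecutive rows moved the same way, unlike the pairs that ran opposite to each other. The row with the next number, XM_029264335.1 of LOC114914124, overlapped. It was at 16.6, 19.5 and 11.5 TPM in SP540 and between 2.95 and 16.8 TPM elsewhere.

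The 4 lower mRNAs were of modest level outside SP540. XM_029260827.1 had the widest gap, with 0, 1.54 and 1.29 TPM in SP540, 9.12, 19.3 and 19.5 TPM in LaMe and 10.2, 12.8 and 12.7 TPM in Yangambi. XM_010909751.2 was at 29.3, 35.8 and 41.2 TPM in LaMe, at 23.9, 22.2 and 29.1 TPM in Yangambi and at 9.13, 1.75e-07 and 1.92e-05 TPM in SP540. Its low-yield SP540 library kept a clear signal that the other SP540 libraries lacked. The row with the preceding number, XM_010909750.3 of LOC105034542, was higher in SP540, at 3.91, 6.77 and 7.19 TPM against 1.75 to 3.70 TPM elsewhere. This gain was far smaller than the loss, and the sum of both rows was 9.002 ± 3.51 TPM (SD, n = 3) in SP540 and 33.0 ± 6.89 TPM (SD, n = 6) in the others, without overlap.

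LOC105058135, row XM_010940946.3, was the most even of the lower mRNAs in SP540, at 2.45, 2.43 and 2.62 TPM. It was at 14.5, 8.44 and 10.8 TPM in LaMe and at 10.8, 14.8 and 6.14 TPM in Yangambi. It is the only row paired with its gene, and whether unpaired rows belong to the gene as well is not known. The fourth lower mRNA is XM_010906495.1, described with its partner above.

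Yield class was tested across the populations in the same limma fit. None of the 18 mRNAs was called for high against low, medium against low or high against medium yield, nor was any of the 30576 rows (0% called in each). At an unadjusted p under 0.05 there were 2, 2 and 3 of the 18, against 4.66%, 3.47% and 4.4% of all rows. The largest was XM_029267555.1, with log2 differences of 2.01 for high against low and 2.21 for high against medium yield (SE 0.615, limma adjusted p = 0.987 and 1). XM_029260827.1 had 0.83 for high against low and 0.88 for medium against low (SE 0.272, adjusted p = 0.987 and 0.9996). XM_029261678.1 and XM_019854211.2 were the others at that unadjusted level, neither being called. On the log2(TPM + 1) scale, the median absolute difference between high and low yield was 0.521 over the 18 and 0.222 over all rows. It was 0.416 and 0.204 between medium and low yield, and 0.253 and 0.217 between high and medium yield. The 18 were not matched in level to all rows, and these medians were not tested. Some of the 18 passed the filter only through SP540, XM_019854211.2 among them, with at most 1.49 TPM in any LaMe or Yangambi library. The counts and medians of the 18 therefore do not compare like sets with those of all rows.

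Within SP540 the higher mRNAs showed no shared order of the yield classes. The highest SP540 value was in the low-yield library for 6, the medium-yield one for 4 and the high-yield one for 4 of the 14. In the same order, the lowest was there for 3, 6 and 5 of them. Over the 13565 predicted mRNA rows with at least 5 TPM in each SP540 library, the highest was there for 29.0, 41.4 and 29.5%. For the lowest it was 41.0, 26.4 and 32.6%. The median coefficient of variation of the 14 over the 3 SP540 libraries was 22.6%, against 15.7% over those 13565 rows (quartiles 9.55 and 24.4%). The 14 were chosen by these SP540 values and not matched in level to those rows, and their median lay inside the quartiles. Added up, the 14 higher mRNAs held 555, 459 and 506 TPM in SP540, 36.4, 42.6 and 52.1 TPM in LaMe and 88.8, 67.6 and 91.8 TPM in Yangambi. The 4 lower ones held 12.5, 6.70 and 3.91 TPM in SP540, and between 51.6 and 79.3 TPM in the other libraries.

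When the rows of a gene were added up before the rule was applied, 12 features were higher and 5 lower in SP540. The 2 higher mRNAs lost were those of LOC105055213 and LOC105052379, the genes whose summed level overlapped between populations. With 7 and 4 rows, these were the only genes of the 18 mRNAs with further rows to add. All other members, paired or not, stood as single rows that summing could not change. On the log2(TPM + 1) scale, their SP540 difference from the other libraries fell from 5.15 to 0.07 and from 2.92 to 0.20. The feature gained was LOC105060429, lower in SP540 at 7.28, 6.01 and 8.56 TPM, against 18.9, 35.6 and 36.1 TPM in LaMe and 19.7, 18.7 and 18.2 TPM in Yangambi.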

How the data were processed

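Per the labels' protocols, leaf RNA came from a Norgen extraction and was made into TruSeq mRNA libraries. The authors deposited TPM values for RefSeq transcript rows. The table is named as counts, but each of the 9 columns sums to 1000000 TPM. The submitters' processing notes name fastp, kallisto and DESeq2. The build behind the transcript set was not given in the sources used here. kallisto divides reads that match several transcripts, so values of near-identical rows are uncertain. Depth is unknown, and no counting interval can be given.

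Rows were paired with EG11 genes by accession without version (31716 of 51490 rows; 1009 with the version). Limma 3.58.1 (R 4.3.3, statmod 1.5.0) was fitted to log2(TPM + 1) of rows that reached 1 TPM in 3 or more libraries, with additive terms for population and for yield class, a trended robust prior, 4 residual degrees of freedom and two-sided Benjamini-Hochberg adjusted p-values over all rows. The edgeR test planned for counts was not run, since the table holds no counts. Scripts were tested on simulated data. All 18 mRNAs are named. The mRNAs, lists and tests were chosen with earlier results of these data known. No sequences were at hand, and gene lists by product description were not used.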

Additional observations from a re-analysis of the deposited data

Results flagged for a closer look

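Non-coding and curated mRNA rows lie outside the predicted mRNAs described above, and 8050 of them had a mean under 1000 TPM. Of these 8050, 5 met the same rule as higher in SP540, all of them non-coding, while 0 met it as lower. Of the 43344 predicted mRNA rows, 14 (0.0323%) met it as higher and 4 (0.00923%) as lower. XR_003800759.1 of LOC114914135 was at 8.74, 5.31 and 9.67 TPM in the SP540 libraries of low, medium and high yield and listed at 0 in the other 6. XR_830627.3 was at 6.22, 9.63 and 12.6 TPM in SP540, at 1.74 TPM in the low-yield Yangambi library and listed at 0 in the other 5. XR_002163303.2 was at 6.97, 6.72 and 10.3 TPM in SP540 and at most at 2.32 TPM elsewhere. XR_002164549.2 of LOC105039806 was at 27.0, 22.3 and 16.8 TPM in SP540 and at most at 7.81 TPM elsewhere. XR_833219.3 of LOC105051351 was at 26.8, 22.1 and 20.6 TPM in SP540 and at most at 10.2 TPM elsewhere. These rows were chosen by the values given, and no test was made of them.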

How the results depend on the processing

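The number of higher mRNAs was 14, and it was 6 with a ratio of at least 3, 26 with 1.5, and 41 with a minimum of 1 TPM. The number of lower mRNAs was 4, and in the same order it was 1, 9 and 18, and 1 with a minimum of 10 TPM. With 1 library left out it lay between 16 and 40 for higher and between 4 and 16 for lower mRNAs, as fewer libraries then have to be separated. The highest counts, 40 and 16, came when the high-yield SP540 library was omitted, and they were 31 and 16 when it was the medium-yield one. Omitting the low-yield SP540 library gave 27 and 7, the low-yield Yangambi library 22 and 9, the high-yield Yangambi library 23 and 4, and the medium-yield LaMe library 17 and 7. The count of mRNAs called for Yangambi against LaMe was 2, and 0 with a pseudocount of 0.1 or with no filter, and it lay between 0 and 1 with single libraries left out. With gene sums, 2 differences that were not called turned sign: LOC105052379 was at -0.092 for Yangambi against LaMe and LOC105055213 at -0.013 for high against medium yield. The causes were not tested. For the 3 yield comparisons, 0 of the 18 were called in every alternative run.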
